A study of Arabidopsis thaliana with 18 samples.

Results

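Purple acid phosphatases and S-like ribonucleases are enzymes that plants use to free phosphate (Pi) from organic matter inside and outside the cell. The genes described here were chosen by name from Arabidopsis thaliana, as 6 purple acid phosphatases, PAP10 (AT2G16430), PAP12 (AT2G27190), PAP14 (AT2G46880), PAP17 (AT3G17790), PAP22 (AT3G52820) and PAP26 (AT5G34850), and 2 ribonucleases of the T2 family, RNS1 (AT2G02990) and RNS2 (AT2G39780). Of these 8 genes, 6 could be matched to 1 row each of the 38408 rows in the expression table, and PAP26 and RNS2 were not analysed here. Col-0 seedlings had grown in hydroponic medium for 5 days and were then kept for 7 days without Pi (P0), at 1.25 mM Pi (P1.25, the control) or at 20 mM Pi (P20). All groups were wild type and all media held sucrose. In P0 potassium phosphate was replaced by potassium sulphate, and in P20 more of it was added, so that the sulphate supply differs with Pi at P0 and the potassium supply at P20, and these cannot be told apart from Pi. Roots and shoots were harvested separately, which gave 6 groups of 3 replicates, 18 arrays in all, and the study describes the replicates as independent biological experiments.

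A purple acid phosphatase carries 2 metal ions in its active site and cleaves phosphate esters at acidic pH. In Arabidopsis, PAP10 is known as an enzyme held on the root surface, PAP12 and PAP26 as major secreted acid phosphatases, with PAP26 also in the vacuole, and PAP17 (also called ACP5) as a smaller enzyme that also has peroxidase activity and is tied to Pi starvation and senescence. RNases of the T2 family cut RNA without base specificity, RNS1 as a secreted enzyme known from Pi starvation, wounding and senescence, and RNS2 as an enzyme of the vacuole that turns over ribosomal RNA. Several of these genes are known targets of the transcription factor PHR1, which SPX proteins hold back when Pi is plentiful.

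Levels are log2 intensities after RMA, the array normalisation used in the study, so a difference of 1 is a 2-fold difference. They rank groups within a gene and do not compare 1 gene with another. A percentile gives the place of a gene's mean among all rows of that group. The RNA came from whole organs, in which fewer cells of a type and less RNA per cell cannot be told apart.

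How the rows got their names limits what can be tested. The platform table used here named none of the 6 genes, and each was named through a table of the study that lists rows in the order of their p-value for Pi treatment, of which 576 rows were at hand. These 6 rows could therefore be named because Pi treatment changed them on average over both organs, relative to their spread between replicates. PAP14 also stood in the study's table of P0 changes in root. Some genes of the other lists were named only through the tables of P0 changes in 1 organ. In the order of the same statistic recomputed over all 38408 rows, PAP12 stood at place 33, PAP17 at 38, PAP22 at 68, PAP14 at 111, RNS1 at 160 and PAP10, the last of them, at 253. The changes of these 6 genes at P0 and at P20 are therefore given as a description, with standard errors (SE) or intervals and no p. The difference of the P0 effect between organs and the difference between shoot and root are separate terms of the balanced design and were tested, although the naming favoured rows of small spread.

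By summed levels, the organ labels matched the markers of each organ. The summed level of 7 of 17 leaf photosynthesis genes was 11.36 to 13.33 (log2 of the summed intensity) in the P0 and P1.25 shoot arrays and 8.57 to 9.62 in the P0 and P1.25 root arrays. The summed level of 6 of 14 root genes was 10.71 to 11.38 in P1.25 root and 7.58 to 8.17 in P1.25 shoot. At P0 this root sum was 9.73 to 9.79 in root and 8.94 to 9.09 in shoot, so the organs lay closer together. Gene by gene, none of the 6 root genes passed the test between organs at P0. Of the 7 photosynthesis genes, 6 passed it as higher in shoot, where 7.1% of all rows did. However, 5 of the 6 root genes were named only through the table of P0 changes in root. They could be named because they changed there, in whichever direction, so nothing is read from the lower root sum. In P0 shoot 2 of the 6, CASP1 and CYP705A5, passed the test as higher, where 6.12% of all rows did. The photosynthesis sum in shoot was 12.55 to 13.33 at P1.25 and 11.36 to 11.43 at P0. Of its 7 genes, 3 were named only through tables of P0 changes, CAB2 and PSAD-1 in shoot and LHB1B1 in root. Of the 4 named by the platform table, 3 passed as lower in P0 shoot, where 7.62% of all rows did. The part of these shifts in the results below was not tested. Array medians lay between 5.44 and 5.66. In the P1.25 and P20 groups the third array held 41.9% to 47.3% of the squared deviation of its group, against 34.1% and 35.8% at P0.

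All 6 genes were highest in P0 shoot, and in both organs every P0 array was above every P1.25 array. The median difference over the 6 genes was 1.39 in root and 3.84 in shoot, beside -0.09 and -0.10 over all rows. A row was called at P0 when its adjusted p in limma was below 0.1 and its difference above 2-fold. By this rule 5 of 6 genes were higher at P0 in root, where 4.69% of all rows were, and 6 of 6 in shoot, where 6.12% of all rows were. Because the naming used the treatment effect, nothing is read from these shares. P0 groups lay wholly above P1.25 groups for 15.5% of all rows in root and 19.2% in shoot.

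**Figure D1:**
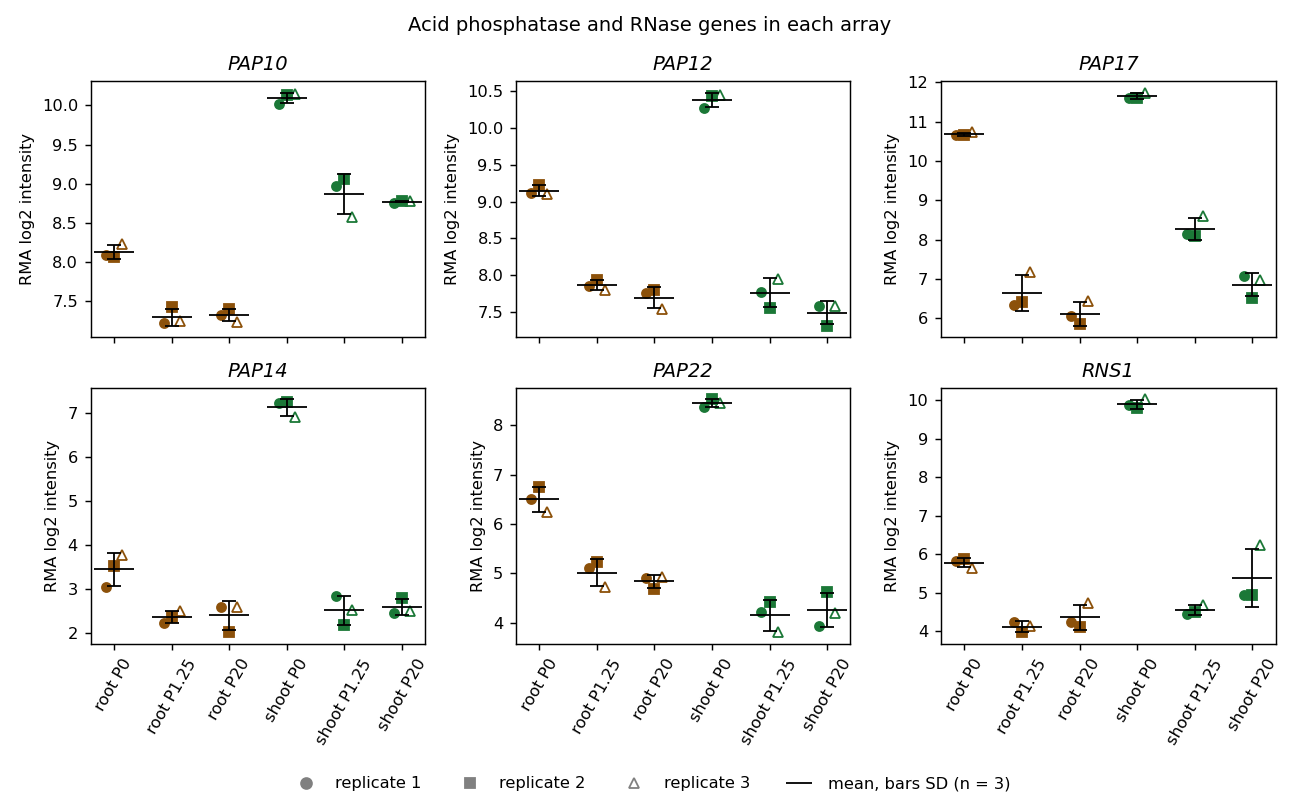
RMA log2 intensity (vertical axis, a separate scale for each gene) of 6 genes in each of the 18 arrays, by organ and Pi level (brown: root, green: shoot). Symbols are replicates, the horizontal line is the group mean and bars are the SD of 3 replicates. In every panel the P0 shoot arrays are the highest, and the RNS1 shoot P20 group is stretched by the third array at 6.24.

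PAP10, the enzyme of the root surface, had more transcript in shoot than in root at each Pi level. In root it read 7.22, 7.42 and 7.25 at P1.25 and 8.09, 8.06 and 8.23 at P0. Its shoot arrays read 8.97, 9.06 and 8.58 at P1.25 and 10.02, 10.13 and 10.14 at P0. The P0 arrays lay above the P1.25 arrays in both organs without overlap, but the P0 root arrays were still below all shoot arrays of P1.25. The difference at P0 was 0.83 ± 0.12 (SE, n = 3 per group) in root, a 1.78-fold difference that stayed under the 2-fold rule, and 1.22 ± 0.12 in shoot, or 2.34-fold. These were the smallest P0 differences of the 6 genes in both organs. At P20 it read 7.33, 7.40 and 7.24 in root and 8.76, 8.78 and 8.78 in shoot, within or near the range of P1.25.

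PAP12, a secreted phosphatase, had like levels in root and shoot in the control and separated between organs only without Pi. In root it read 7.86, 7.94 and 7.80 at P1.25 and 9.12, 9.23 and 9.10 at P0. In shoot it read 7.78, 7.56 and 7.95 at P1.25 and 10.27, 10.43 and 10.44 at P0. The organ ranges overlapped at P1.25 and were more than 1 log2 unit apart at P0. The difference at P0 was 1.29 ± 0.12 in root (2.44-fold) and 2.62 ± 0.12 in shoot (6.14-fold). At P20 PAP12 read 7.76, 7.80 and 7.54 in root and 7.59, 7.32 and 7.58 in shoot, at or slightly below the control.

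PAP17, the phosphatase with peroxidase activity, stood apart in that its P0 difference was the largest of the 6 genes in root and the fourth largest in shoot. Root arrays read 6.34, 6.42 and 7.16 at P1.25 and 10.66, 10.66 and 10.73 at P0. Shoot arrays read 8.15, 8.08 and 8.59 at P1.25 and 11.60, 11.61 and 11.74 at P0. The P0 replicates had an SD of 0.04 in root and 0.08 in shoot, whereas the third P1.25 array was the highest of its group in both organs. The difference at P0 was 4.04 ± 0.22 in root (16.5-fold) and 3.37 ± 0.22 in shoot (10.4-fold). Its mean moved from percentile 64.9 to 98.4 of all rows in root and from 86.0 to 99.3 in shoot. At P20 it read 6.05, 5.84 and 6.43 in root and 7.08, 6.52 and 6.96 in shoot, and the shoot arrays of P20 lay wholly below those of P1.25, as for 5.51% of all rows.

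PAP14 was near the bottom of the table wherever Pi was supplied. In root it read 2.23, 2.37 and 2.50 at P1.25 and 3.04, 3.52 and 3.78 at P0. In shoot it read 2.84, 2.19 and 2.52 at P1.25 and 7.24, 7.25 and 6.92 at P0. Its mean was at percentile 5.19 in root and 5.69 in shoot at P1.25, and at 20.1 and 72.4 at P0. Its differences among the groups with Pi therefore rest on dim signal, and so does its root difference at P0, which enters the comparison of organs. The difference at P0 was 1.08 ± 0.21 in root (2.12-fold), just above the 2-fold rule, and 4.62 ± 0.21 in shoot (24.5-fold). Without the third P0 root array the root difference was 0.92, under the rule. At P20 it read 2.59, 2.02 and 2.60 in root and 2.45, 2.80 and 2.51 in shoot, overlapping the control in both organs.

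PAP22 changed its order between organs. In root it read 5.10, 5.23 and 4.72 at P1.25 and 6.51, 6.75 and 6.25 at P0. In shoot it read 4.22, 4.41 and 3.81 at P1.25 and 8.37, 8.53 and 8.45 at P0. All root arrays were above all shoot arrays at P1.25, as for 23.6% of all rows, and all were below them at P0. The difference at P0 was 1.49 ± 0.20 in root (2.81-fold) and 4.31 ± 0.20 in shoot (19.8-fold). At P20 it read 4.91, 4.69 and 4.92 in root and 3.94, 4.63 and 4.19 in shoot, again overlapping the control.

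RNS1, the secreted ribonuclease, had the largest P0 difference of the 6 genes in shoot. In root it read 4.24, 3.97 and 4.13 at P1.25 and 5.81, 5.87 and 5.65 at P0. Its shoot arrays read 4.43, 4.49 and 4.68 at P1.25 and 9.87, 9.79 and 10.03 at P0. The organs were close in the control and about 4 log2 units apart without Pi. The difference at P0 was 1.66 ± 0.27 in root (3.16-fold) and 5.37 ± 0.27 in shoot (41.2-fold). Its mean moved from percentile 28.9 to 54.1 in root and from 34.3 to 96.8 in shoot. At P20 it read 4.24, 4.11 and 4.72 in root and 4.94, 4.94 and 6.24 in shoot, and the third P20 shoot array was higher than every root array of P0.

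The order of the groups had a common top. For PAP12, PAP14, PAP17, PAP22 and RNS1 the order from the highest mean was P0 shoot and then P0 root, and the arrays of these groups did not overlap. For PAP10 the shoot groups of P1.25 and P20 came between them, since the organ difference was larger than the root difference at P0. Below the P0 groups, neighbours mostly overlapped. For PAP12 and PAP14 all 4 groups with Pi formed a chain of overlapping neighbours. For PAP17 the P1.25 shoot group was separate from the P20 shoot group below it and from the P0 root group above it. For RNS1 the P20 shoot range, through the third array, overlapped that of P0 root.

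**Figure D2:**
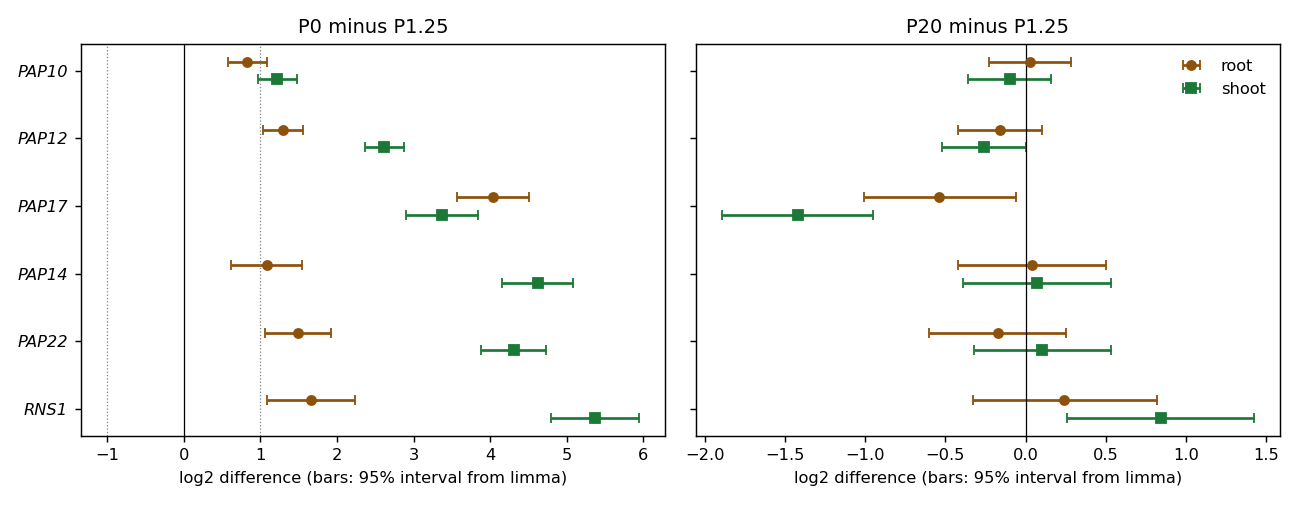
Log2 difference from P1.25 (horizontal axis) of 6 genes at P0 (left) and P20 (right) in root (brown circles) and shoot (green squares), with 95% intervals from limma. Dotted lines in the left panel mark 2-fold. At P0 the shoot points of PAP12, PAP14, PAP22 and RNS1 lie to the right of their root points with separate intervals, and at P20 the PAP17 shoot point lies at -1.42.

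Whether roots and shoots differed in their P0 effect was tested as the difference of the differences (root minus shoot), called at an adjusted p below 0.1 in limma whatever its size. The effect was smaller in root for 4 of 6 genes, where 8.98% of all rows were called in that direction and 17.1% in either. The difference was -3.71 ± 0.38 for RNS1 (adjusted p = 5.11e-05 in limma), -3.53 ± 0.30 for PAP14 (adjusted p = 1.54e-05) and -2.82 ± 0.28 for PAP22 (adjusted p = 3.92e-05). For PAP12 it was -1.33 ± 0.17 (adjusted p = 0.000276 in limma). In each of these 4 genes all 3 P0 shoot arrays were above all 3 P0 root arrays, as for 21.8% of all rows. For PAP10 the difference of -0.40 (95% interval -0.76 to -0.03) did not pass, with an adjusted p of 0.155 in limma, although it did without the second P1.25 shoot array (-0.49, adjusted p = 0.0913). For PAP17 the estimate went the other way, at 0.67 (95% interval 0.00 to 1.34), and did not pass either (adjusted p = 0.194 in limma). Without the third P1.25 root array the PAP17 difference was 0.93 and passed (adjusted p = 0.0375 in limma).

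The difference between shoot and root at a given Pi level was called by the same rule as P0, and 9.96% of all rows were higher in shoot at P1.25 and 7.1% at P0. In the control 2 of 6 genes were called, both higher in shoot. These were PAP17, by 1.63 (adjusted p = 3.2e-05 in limma), and PAP10, by 1.58 (adjusted p = 1.09e-07). PAP22 was lower in shoot by 0.87 on the log2 scale (difference -0.87, adjusted p = 0.00323 in limma), under 2-fold, and without the third P1.25 root array it was -1.02 and past the rule. RNS1 (0.42, adjusted p = 0.277), PAP14 (0.15, adjusted p = 0.648) and PAP12 (-0.10, adjusted p = 0.581) did not pass in limma. At P0, 5 of 6 genes were called higher in shoot, led by RNS1 at 4.12 (adjusted p = 7.35e-08 in limma) and PAP14 at 3.69 (adjusted p = 3e-08). PAP10 followed at 1.97, PAP22 at 1.95 and PAP12 at 1.23, with adjusted p of 4.1e-08, 4.33e-06 and 3.1e-06 in limma. PAP17 was higher by 0.96 (adjusted p = 0.00426), under 2-fold. The P0 arrays enter this comparison and that of the P0 effects, so the 2 are not independent.

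High Pi was called at an adjusted p below 0.1 whatever the fold, and the P20 and P0 differences share the P1.25 arrays. The treatment p that named the rows also held the P20 arrays, so nothing is read from the calls of these genes at P20. In root none of the 6 genes was called, where 0.0469% of all rows were (18 rows, with 2143 at an unadjusted p below 0.05). The largest root estimate was that of PAP17, at -0.54 (95% interval -1.01 to -0.06), and the other 5 lay between -0.17 and 0.24. In shoot 1 of 6 genes was called, PAP17, which was lower at P20 by 2.68-fold (-1.42 ± 0.22, 95% interval -1.89 to -0.95). In this comparison 0.0365% of all rows (14 rows) were called, and 0.0104% as lower.

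The PAP17 call was lost in 5 of 29 alternative settings and kept in the others, among them array weights and a replicate block over all arrays. The call was lost when the fit held the 9 shoot arrays alone. It was also lost without the first P1.25 shoot array, the first P20 shoot array or the second P20 shoot array. Same-numbered shoot arrays of P1.25 and P20 deviated together, with correlations of 0.13 to 0.291. With the replicate number as a block within those 6 arrays no row of the table was called, with 3122 at an unadjusted p below 0.05. That fit of 6 arrays leaves little to estimate the spread, so its loss of the call says nothing about PAP17 in particular. The estimate itself stayed between -1.53 and -1.26. The fall in shoot was not shown to differ from root, since the difference of the P20 effects was 0.89 (95% interval 0.22 to 1.55, adjusted p = 0.94 in limma). None of the 6 genes passed that test, where 0.0104% of all rows did, 4 rows, with 1789 at an unadjusted p below 0.05.

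RNS1 had the largest shoot estimate above the control at P20, 0.84 (95% interval 0.26 to 1.42). Its P20 shoot arrays were all above those of P1.25, as for 6.65% of all rows, and without the third P1.25 and P20 arrays the estimate was 0.48. The other shoot estimates were -0.26 for PAP12, -0.10 for PAP10, 0.10 for PAP22 and 0.07 for PAP14, none of them called.

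Of the 23 other purple acid phosphatases, 9 had a row. At P0, 5 of 9 were called higher in root, with a median of 1.32, and in shoot 8 were called higher and 1 lower, with a median of 2.31. Over all rows, 4.69% were called higher and 4.54% lower at P0 in root, and 6.12% higher and 7.62% lower in shoot. Of the 9 genes, 6 were named only through tables of the study ordered or filtered by Pi effects, so their P0 values are descriptions. PAP5 was higher by 1.95 in root and 6.62 in shoot, PAP24 by 1.32 and 5.54, and PAP23 by 1.53 and 4.29. PAP19 differed by 0.90 in root, which was not called, and by 4.21 in shoot. In these 4 genes the P0 shoot difference exceeded the root difference, as in RNS1, PAP14 and PAP22. At P1.25, however, PAP5, PAP19 and PAP24 stood between percentiles 6.64 and 12.3 in both organs, and PAP23 at 19.0 in root and 19.8 in shoot. In P0 root PAP19 was at 20.9 and PAP24 at 29.9, so these root differences rest on dim signal.

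Only 3 purple acid phosphatases, AT1G13750, AT1G25230 and PAP20, were named by the platform table and can be tested at P0 without that limit. AT1G13750 rose in root by 1.46 ± 0.35 (adjusted p = 0.00753 in limma) and in shoot by 2.31 ± 0.35 (adjusted p = 0.000198). Its P0 arrays read 7.93, 7.92 and 7.93 in root and 9.11, 9.04 and 9.10 in shoot, and its P1.25 shoot arrays 6.31, 6.69 and 7.32. AT1G25230 went the other way, falling in shoot by 2.07 on the log2 scale (difference -2.07 ± 0.17, adjusted p = 1.08e-06 in limma). Its level was 8.45 ± 0.26 (SD, n = 3) in P1.25 shoot and 6.37 ± 0.24 in P0 shoot, while its root difference of -0.73 ± 0.17 was under 2-fold. The purple acid phosphatases thus did not all move one way.

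PAP20 lies close to PAP22 on the chromosome. In the RefSeq gene table PAP21 and PAP22 are direct neighbours, and 2 other genes lie between PAP20 and PAP21, which had no row. PAP20 read 5.01, 4.47 and 5.03 in P1.25 root and 6.42, 6.37 and 6.56 in P0 root. In shoot it read 4.70, 4.59 and 5.53 at P1.25 and 6.62, 6.79 and 6.66 at P0. PAP20 rose by 1.61 ± 0.22 in root (adjusted p = 0.000144 in limma) and 1.75 ± 0.22 in shoot (adjusted p = 4.56e-05). Its organ difference of the P0 effect was -0.14 (95% interval -0.80 to 0.52, adjusted p = 0.835 in limma), whereas that of PAP22 was -2.82. The 2 genes were thus alike in root at P0, and their shoot differences were 1.75 and 4.31. Whether these differ from each other was not tested.

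**Figure D3:**
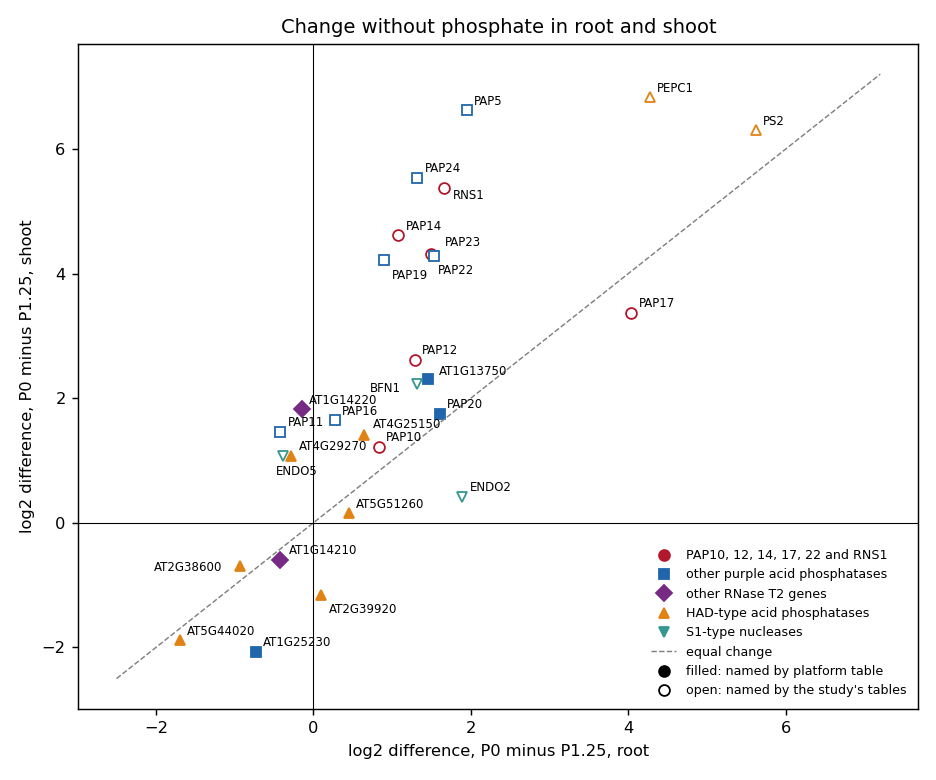
Log2 difference between P0 and P1.25 in root (horizontal axis) and shoot (vertical axis) of the 6 genes (red circles) and of other purple acid phosphatases, RNase T2 genes, HAD-type acid phosphatases and S1-type nucleases. Filled symbols were named by the platform table, open ones by the study's own tables, and the dashed line marks equal change. Open symbols above the line include PAP5, at 1.95 in root and 6.62 in shoot, and PAP17 lies below it at 4.04 and 3.37.

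Other families that release Pi from organic matter were mixed. Of the 3 other RNase T2 genes, AT1G14210 and AT1G14220 had a row, both named by the platform table. AT1G14220 rose in shoot by 1.82 ± 0.30 (adjusted p = 0.000392 in limma), from 3.49, 3.01 and 3.71 at P1.25 to 5.51, 5.18 and 4.98 at P0, and was at -0.15 in root. Its organ difference of the P0 effect was -1.97 ± 0.42 (adjusted p = 0.00753 in limma), with the same sign as RNS1. AT1G14210 was at -0.43 in root and -0.59 in shoot, under 2-fold. Among 5 genes of S1-type nucleases, which cut RNA and single-stranded DNA, 3 had a row. BFN1, known from senescence, was higher by 1.32 in root and 2.22 in shoot, ENDO2 was higher by 1.89 in root, with a shoot difference of 0.42 that was not called, and ENDO5 was higher by 1.08 in shoot, with a root difference of -0.38 that was not called. All 3 were named only through a table of P0 changes in 1 organ. Without the third P1.25 root array the root difference of BFN1 was 0.85, and without the second P1.25 shoot array the shoot difference of ENDO5 was 0.85, both under the 2-fold rule.

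The HAD-type acid phosphatases, which share no ancestry with the purple ones, had 8 of 12 genes with a row. In root 2 were called higher and 1 lower, where 4.69% and 4.54% of all rows were, and in shoot 4 higher and 2 lower, where 6.12% and 7.62% of all rows were. The 6 of them named by the platform table had 0 higher and 1 lower in root and 2 higher and 2 lower in shoot. The pair with the largest values was PEPC1, a phosphatase of phosphoethanolamine and phosphocholine, at 4.27 in root and 6.83 in shoot, and PS2, a pyrophosphatase, at 5.62 and 6.30. Both were named through the treatment table. Of the 6 named by the platform table, AT4G25150 rose in shoot by 1.41 ± 0.15 (adjusted p = 1.06e-05 in limma) and AT5G44020 fell in both organs, by -1.70 ± 0.23 in root (adjusted p = 0.000125) and -1.88 ± 0.23 in shoot (adjusted p = 3.31e-05). Of 13 genes for release and transport of nucleosides, the next step after RNA breakdown, AT1G14240 and AT4G05140 had a row and neither was called.

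Of 12 regulators tied to acid phosphatase genes, 7 had a row, and 6 were called higher in each organ, where 4.69% of all rows were in root and 6.12% in shoot. Of the 7, 5 were named only through tables ordered or filtered by Pi effects, so nothing is read from that share, and 1 of the 2 named by the platform was called in each organ. PHR1 was not among the 7. The SPX genes, which encode the Pi-dependent brakes on PHR1, were higher at P0 in both organs, SPX3 by 5.82 in root and 7.74 in shoot, SPX1 by 3.10 and 3.55 and SPX2 by 1.21 and 2.07. WRKY6, named by the platform table, rose by 1.33 ± 0.40 in root (adjusted p = 0.0258 in limma) and 1.12 ± 0.40 in shoot (adjusted p = 0.0449). SPX1 was at -2.14 ± 0.26 at P20 in shoot, past the call rule. It was named, like PAP17, through the treatment p that held the P20 arrays. With the replicate block within the P1.25 and P20 shoot arrays, where no row was called, it lost this call as PAP17 did. Markers of leaf senescence, with which PAP17, RNS1 and BFN1 are associated, had 3 of 6 genes with a row, and their summed log2 level was 6.58 to 7.29 in P1.25 root and 8.77 to 8.86 in P0 root. In shoot it was 9.29 to 9.49 at P1.25, 10.05 to 10.12 at P0 and 9.21 to 10.32 at P20. All 3 were named only through tables of P0 changes, each in root and SAG13 also in shoot. They could be named because they changed there, in whichever direction, so nothing is read from the higher sums at P0. SAG12, the defining marker, had no row, and the part of this shift in the values above was not tested.

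The genes with the most similar pattern to each gene were found by Pearson correlation over all 18 arrays among 17772 other rows with 1 gene. These 18 arrays share organ and treatment differences, so the correlations describe a common pattern over groups. PAP10 was most like APL3, a subunit of the enzyme that makes ADP-glucose for starch (r = 0.99), and DGD1, an enzyme of galactolipid synthesis (r = 0.988). PAP12 was most like the Pi transporter gene PHT1;8 (r = 0.988) and AT1G23110 (r = 0.987). PAP17 was most like G3Pp1, a glycerol-3-phosphate permease gene (r = 0.993), and AT1G24575 (r = 0.978). PAP14 was most like AT3G03790 (r = 0.983) and the phosphatase gene PAP23 (r = 0.98). PAP22 was most like the pyrophosphatase gene PPa4 (r = 0.979) and PHF1, which is needed for Pi transporters to leave the endoplasmic reticulum (r = 0.976). RNS1 was most like AT3G44830 and AT5G61510 (r = 0.972 for both). Of these genes, DGD1, PHT1;8, G3Pp1, PAP23, PPa4 and PHF1 were named only through tables of the study ordered or filtered by Pi effects. That genes known from Pi nutrition are among the matches is therefore not read as a result. APL3 and the genes given by locus were named by the platform table.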

How the data were processed

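Transcripts of root and shoot were measured on AraGene 1.0 ST arrays. The deposited values are log2 intensities, which the authors made by RMA at gene level in Partek Genomics Suite (version 6.6). The annotation build was not given in the sources used here. One table with 38408 rows and 18 columns was used, with no further scaling. RMA evens out the distribution of arrays, so a shift of the whole transcriptome is not visible. Of its rows, 16670 were named with 1 gene by the platform table and 1103 more by the study's supplementary tables, of which only gene names were taken. These listed 576 rows by treatment p, 1280 for P0 in root and 1275 for P0 in shoot. In the list by treatment p an entry's first gene was used. Entries with several genes in the P0 lists gave no name. PAP26 and RNS2 were matched by none of these tables. The same tables named most marker genes.

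A linear model with 6 group means was fitted to all rows with limma (version 3.58.1 in R 4.3.3), with moderated spread (12 residual and 2.43 prior degrees of freedom) and Benjamini-Hochberg adjustment over 38408 rows. An exact permutation test of 3 against 3 arrays cannot go below p = 0.1, so none was used. On simulated data with 38408 rows, 66% of 100 planted 1-unit changes and 85% of 100 planted 2-unit changes were recovered for P0 in root. Recovered meant an adjusted p below 0.1 in limma with the planted sign, without the 2-fold rule. Far fewer rows were planted than the 3544 called at P0 in root in the data. These shares therefore do not give the power of the P0 calls. Alternatives were another error model, array weights, fewer arrays, another scaling, a filter on dim rows, other thresholds and a replicate block. The replicate numbers were compared by the correlation of deviations from group means. Every pair was above 0.1 only between shoot P1.25 and shoot P20 (0.136, 0.13 and 0.291), and the block within these arrays was added after seeing the data.

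The genes and gene lists were chosen with earlier results of these data known. Named were all 8 genes of the set, up to 4 genes per other list with the smallest p at P0, and the 2 most similar rows per gene. Genes named by the platform table, senescence and root markers, the other SPX and nuclease genes and neighbours of PAP22 were added after their values were seen. The tables of the authors' own fold changes and p-values were not used as results. Sequences were not analysed here. The number of arrays limits the precision.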

Additional observations from a re-analysis of the deposited data

Results flagged for a closer look

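The P0 effect differed between organs in 4 of the 6 genes, by the test of the difference itself (root minus shoot, log2). Over all rows, 17.1% passed this test in either direction and 8.98% with a negative value. The difference was -1.33 for PAP12, -3.53 for PAP14, -2.82 for PAP22 and -3.71 for RNS1. Among the other purple acid phosphatases named in the report it was -4.67 for PAP5, -4.22 for PAP24, -3.31 for PAP19, -2.77 for PAP23 and 1.34 for AT1G25230. Further differences of this kind were -1.97 for AT1G14220, -2.56 for PEPC1, -0.77 for AT4G25150, 1.46 for ENDO2, -1.46 for ENDO5, -1.92 for SPX3, -1.06 for MYB62 and -0.86 for SPX2. ENDO2 and ENDO5 were each named through a table of P0 changes in 1 organ, which favours such a difference. PAP5, PAP24, PAP19, PAP23, PEPC1, AT4G25150, SPX3, MYB62 and SPX2 were picked from longer lists. The pick went by the smallest p at P0 in either organ, which also favours such a difference. AT1G25230 fell more in shoot, so its positive value is a larger fall there, whereas that of ENDO2 is a larger rise in root.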

How the results depend on the processing

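No direction changed under any alternative for the P0 changes of the 6 genes, their organ differences of the P0 effect or their shoot minus root differences at P0. The number of the 6 genes called at P20 in shoot was 1, and was 0 with the shoot arrays alone. It was also 0 with the replicate block within the P1.25 and P20 shoot arrays, where no row was called. With each array left out in turn it was 0 to 1, losing PAP17 without the first P1.25 shoot array and without the first or second P20 shoot array. The replicate block over all arrays made the organ difference of the P0 effect of PAP17 pass (0.67, adjusted p = 0.0821 in limma), as did array weights (0.71, adjusted p = 0.0514) and leaving out the third P1.25 and P20 arrays (0.77, adjusted p = 0.02). For PAP10 that difference passed with array weights (-0.36) and with quantile scaling within an organ (-0.46). The block changed no other call of the 6 genes. Without the third arrays, the rows called at P20 went from 18 to 1003 in root and from 14 to 1190 in shoot, and with array weights to 271 and 405, while the calls of the 6 genes there were unchanged. Small P20 estimates changed sign: -0.03 for PAP10 and -0.01 for PAP14 in root with arrays centred on their median, -0.04 for PAP14 and -0.08 for PAP22 in shoot and 0.12 for the organ difference of PAP14 with array weights, and -0.03 for PAP22 in shoot without the third arrays. With each array left out, sign changes lay within -0.01 to 0.09 (PAP10, P20 root), -0.06 to 0.23 (PAP14, P20 root), -0.09 to 0.23 (PAP14, P20 shoot), -0.19 to 0.16 (PAP14, P20 organ difference), -0.08 to 0.26 (PAP22, P20 shoot), -0.19 to 0.00 (PAP12, shoot minus root at P1.25), -0.01 to 0.31 (PAP14, shoot minus root at P1.25), -0.43 to 0.12 (AT1G14220, P0 root), -0.13 to 0.14 (AT1G14240, P0 shoot), -0.01 to 0.32 (AT4G05140, P0 shoot) and -0.43 to 0.04 (PAP20, organ difference). The cause was not tested. The ENDO2 organ difference lost its call in 8 of the settings with an array left out, and BFN1 in root its 2-fold change without the third P1.25 root array (0.85). PAP19 in root passed the rule without that array (1.10) and with arrays centred on their median (1.00). Leaving out the dimmest 25% of rows tested fewer genes, and 4 instead of 8 other purple acid phosphatases were then called higher at P0 in shoot. PAP14 is itself among those dim rows and had no value under that filter.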

Other observations

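At P20 in shoot, PAP17 and SPX1 passed the call rule, both lower than at P1.25. Both lost the call with the replicate block within the P1.25 and P20 shoot arrays, where no row was called. No other gene of the lists used here passed at P20 in either organ. Several genes that were higher at P0 had estimates below the control at P20 in shoot without passing. PS2, the pyrophosphatase gene, was at -1.26 (95% interval -2.13 to -0.39), AT1G13750 at -0.77 (adjusted p = 0.547 in limma), PAP19 at -0.72 and SPX3 at -0.68. PS2, PAP19, SPX1 and SPX3 were, like PAP17, named through the treatment p that held the P20 arrays. AT1G25230, which fell at P0, was at 0.63 (95% interval 0.26 to 1.00, adjusted p = 0.345 in limma). PEPC1 (-0.19), PAP24 (0.22) and PAP23 (0.02), which were also much higher at P0 in shoot, had smaller P20 estimates. These values share the P1.25 shoot arrays with the P0 differences, and the third P1.25 shoot array of AT1G13750 read 7.32 beside 6.31 and 6.69.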
